A study of Mus musculus with 17 samples.

Results

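S100 proteins are small calcium-binding proteins, and the set described here holds the muscle, stromal and neutrophil members of the family: S100a1, S100a4, S100a6, S100a8, S100a9, S100a10, S100a11, S100a13 and S100b. The members are all probe sets that the array's annotation assigns to exactly 1 of these 9 gene symbols. The rule found 11 probe sets for 8 of the 9 genes, out of 22626 probe sets tested and 12393 genes with a probe set of their own. S100a1, S100a10 and S100b had 2 probe sets each. S100a11 is listed on 1 probe set that carries 3 symbols, so no value is given for it.

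RNA from the tibialis anterior, the fast-fibred muscle at the front of the shin, was hybridised to 1 Affymetrix array per sample, and the labels call the samples biological replicates. The 5 fiona arrays came from mdx mice that also carry a utrophin transgene expressed at a high level, the 6 mdx arrays from mice without that transgene, and the 6 normal arrays from mice described as normal. Fiona and mdx mice share the mdx mutation, which abolishes dystrophin in muscle fibres, whereas the strain of the normal mice and the promoter that drives the transgene are not given in the sources used here. All mice are labelled male and were 56 days old, and the muscles of both legs were pooled per sample.

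An S100 protein usually forms a dimer, binds calcium through a pair of EF-hand loops on each chain, and then exposes a surface that grips a target protein. S100A10 is the exception, since it has lost calcium binding and stays in the form that holds annexin A2. Inside cells the family acts on the cytoskeleton, membrane repair and calcium handling. Outside cells S100A8 and S100A9, which together make calprotectin, and S100B act as danger signals through receptors such as RAGE (the Ager product) and TLR4. In muscle S100A1 is the fibre's own member, S100A4 and S100A6 are known from fibroblasts and infiltrating leukocytes, S100A8 and S100A9 from neutrophils and monocytes, and S100B from Schwann cells.

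Values are log2 expression values as the authors deposited them, so a difference of 1 is 2-fold, and levels of different probe sets are not set against each other. Array medians lay between 3.52 and 3.82, and array pairs correlated at 0.939 to 0.996. The 15 probe sets for bacterial transcripts that were not spiked in gave a background: their median was 2.64 to 2.99, and the highest of them 3.67 to 4.06, depending on the array. The 10 fast fibre genes averaged 14.52 to 14.77 in fiona muscle, 14.41 to 14.67 in mdx muscle and 14.45 to 14.81 in normal muscle. Although all mice are labelled male, 7 arrays (4 fiona, 2 mdx and 1 normal) had high Xist and low Eif2s3y, the pattern of female tissue, and mdx array 6 had both genes high (Xist 5.40, Eif2s3y 8.11). A single component held 42.7% of the variance within groups and separated 8 arrays (2 fiona, 3 mdx and 3 normal) from the other 9 in all 3 groups. The labels name no batch, but in the mdx and the normal group the replicate numbers follow this split (numbers 3, 4 and 5 against 1, 2 and 6), and in the fiona group they do not. Members were called where the adjusted p of limma, fitted over all 17 arrays and adjusted by Benjamini-Hochberg over all probe sets, was under 0.05.

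In mdx muscle, compared with normal muscle, 4 member genes rose: S100a4, S100a6, S100a10 and S100a13. Their 5 probe sets were 5 of the 11 members, against 2.73% of all probe sets called higher in this comparison, and no member was called lower. The same 5 probe sets were lower in fiona muscle than in mdx muscle, where 6.08% of all probe sets were called lower. Between fiona and normal muscle 0 members were called by limma, against 0.00442% of all probe sets in either direction, and 0 members reached an unadjusted p under 0.05, against 22.8% of all probe sets. The median difference over the 11 members was 0.26 for mdx minus normal, -0.55 for fiona minus mdx and -0.13 for fiona minus normal, beside -0.04, 0.08 and 0.04 over all probe sets. By 1 probe set per gene, the brightest, 4 of 8 member genes were called higher in mdx than in normal muscle (3.17% of all genes), and 4 of 8 lower in fiona muscle than in mdx muscle (7.00% of all genes). For these 5 probe sets every mdx array lay above every normal array, as in 2.24% of all probe sets, and every fiona array lay below every mdx array, as in 2.02%. The comparisons with mdx muscle share the mdx arrays, so their differences are not independent of each other.

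**Figure D1:**
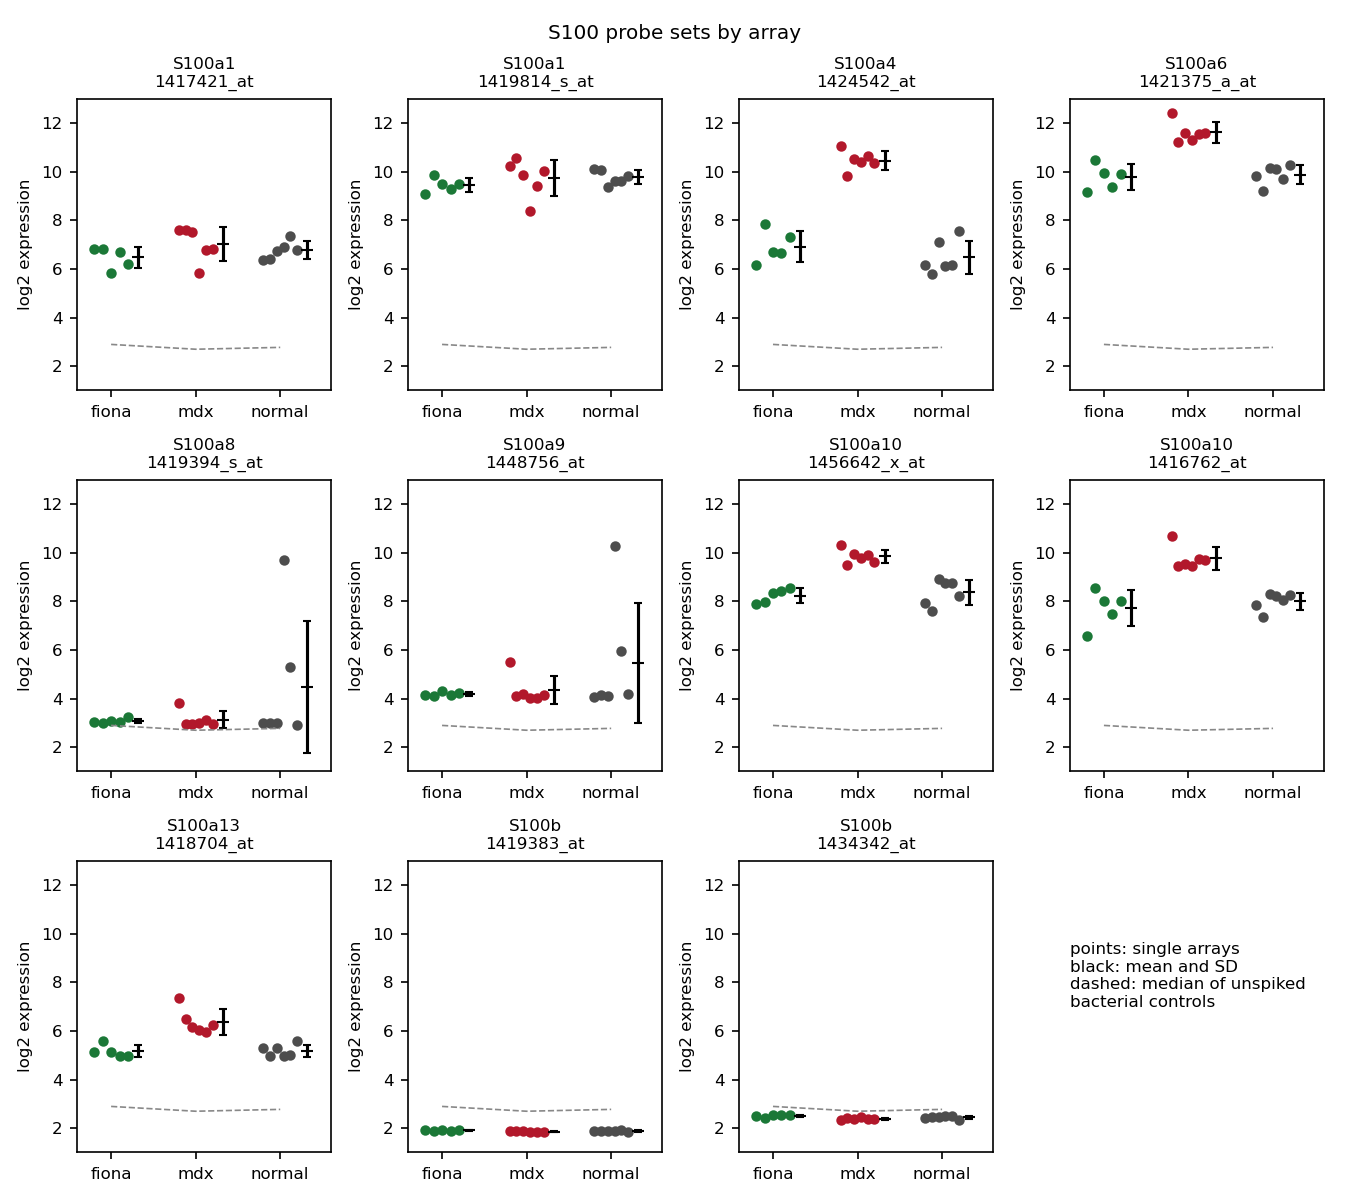
Log2 expression of the 11 member probe sets, 1 panel each, with groups fiona, mdx and normal along the horizontal axis; points are single arrays, the black mark beside them is the group's mean with its SD, and the dashed line joins the groups' median background controls. S100a4 reached 9.81 to 11.04 on the mdx arrays, above every other array, whereas S100a8 and S100a9 stood out on normal array 4 (9.68 and 10.30).

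S100a4, a regulator of non-muscle myosin and cell motility, changed more than any other member. Its probe set read 6.16, 7.83, 6.68, 6.64 and 7.30 on the 5 fiona arrays. On the mdx arrays the lowest, median and highest values were 9.81, 10.45 and 11.04, and on the normal arrays 5.79, 6.17 and 7.55. No mdx array overlapped with either other group, while the fiona and normal arrays covered much the same range. The difference was 3.98 for mdx minus normal (15.8-fold, 95% confidence interval 3.28 to 4.68, limma adjusted p = 4.41e-06), with 19 probe sets above it in that comparison. For fiona minus mdx it was -3.54 (11.7-fold lower in fiona, interval -4.28 to -2.81, limma adjusted p = 3.64e-05), with 27 probe sets below it. Fiona minus normal gave 0.44 with an interval of -0.30 to 1.17 (limma adjusted p = 0.432). Neither no change nor a 2-fold higher level in fiona muscle lies outside it, whereas a 2-fold lower level does. This is RNA from whole muscle, so more cells that express a gene and more RNA per cell cannot be told apart, here and for every member below.

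S100a6, also called calcyclin, binds the calcyclin-binding protein and annexins in fibroblasts and other dividing cells. Its values were 9.17, 10.50, 9.96, 9.38 and 9.93 in fiona muscle. They had a lowest, median and highest of 11.23, 11.57 and 12.42 in mdx muscle and 9.21, 9.97 and 10.29 in normal muscle. All 6 mdx arrays were again above all others. The difference was 1.74 for mdx minus normal (3.33-fold, limma adjusted p = 0.000731) and -1.84 for fiona minus mdx (limma adjusted p = 0.000891). For fiona minus normal it was -0.10, with an interval of -0.66 to 0.46.

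S100a4 and S100a6 lie near each other in the S100 cluster of chromosome 3, with S100a5 between them. Their upstream regions are shown because the levels of the 2 genes varied together. Each sequence is the 250 bases before the RefSeq start (GRCm38.p6, plus strand, 5′ to 3′), at chr3:90603520-90603769 for S100a4 and chr3:90612644-90612893 for S100a6, and capitals mark the TATA box letters TATAAA.
S100a4: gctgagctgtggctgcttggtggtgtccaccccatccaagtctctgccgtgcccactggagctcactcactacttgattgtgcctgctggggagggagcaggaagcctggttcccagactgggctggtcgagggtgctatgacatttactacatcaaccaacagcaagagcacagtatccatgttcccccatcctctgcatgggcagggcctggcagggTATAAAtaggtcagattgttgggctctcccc
S100a6: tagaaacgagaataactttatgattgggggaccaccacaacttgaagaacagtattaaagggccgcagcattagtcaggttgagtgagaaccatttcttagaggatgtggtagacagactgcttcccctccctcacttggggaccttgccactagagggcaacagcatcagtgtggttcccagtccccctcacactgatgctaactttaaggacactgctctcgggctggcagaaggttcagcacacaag
The S100a4 window holds TATAAA 31 bases before the start, and the S100a6 window does not hold these letters. Searched on both strands, TATAAA occurs in 12.4% of 32851 RefSeq promoters of this length and in 2 of the 8 member promoters in the table, which has no entry for S100a10. The E-box letters CANNTG occur in 66.2% of all promoters and in 6 of 8 member promoters, S100a6 among them. The AP-1 letters TGANTCA occur in 6.75% of all promoters and in 1 of 8 member promoters, that of S100a11. No matches of different motifs overlapped in the member promoters.

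S100a10, the partner that carries annexin A2 to the cell surface, was read by 2 probe sets. With 1416762_at the fiona arrays read 6.58, 8.55, 8.03, 7.50 and 8.04, while the lowest, median and highest values were 9.45, 9.63 and 10.69 in mdx muscle and 7.36, 8.14 and 8.30 in normal muscle. With 1456642_x_at they read 7.87, 7.96, 8.36, 8.44 and 8.54 in fiona muscle, against 9.51, 9.86 and 10.32 in mdx muscle and 7.60, 8.49 and 8.91 in normal muscle. Both probe sets put all mdx arrays above the rest. Mdx minus normal was 1.76 and 1.48 (3.39-fold and 2.79-fold, limma adjusted p = 0.00263 and 0.000986). Fiona minus mdx was -2.03 and -1.61 (limma adjusted p = 0.00160 and 0.000907), and fiona minus normal -0.27 and -0.13 (adjusted p = 0.612 and 0.752). Within groups the 2 probe sets correlated at only 0.55 over 17 arrays. The suffix of 1456642_x_at marks probes that may bind other transcripts, and its calls were lost without the 7 arrays of female pattern (1.34, adjusted p = 0.0647, for mdx minus normal, and -1.30, adjusted p = 0.119, for fiona minus mdx).

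S100a13, which helps to export FGF1 and interleukin 1 alpha, proteins that lack a signal peptide, rose less. Fiona arrays read 5.13, 5.60, 5.15, 4.97 and 4.99. The lowest, median and highest values were 5.94, 6.20 and 7.35 in mdx muscle and 4.97, 5.14 and 5.58 in normal muscle. The mdx arrays did not overlap with the others, although the gap to the highest normal array was small. Mdx minus normal was 1.19 (2.28-fold, limma adjusted p = 0.00326), fiona minus mdx -1.20 (adjusted p = 0.00505), and fiona minus normal -0.01 (adjusted p = 0.978).

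For each of the 5 probe sets the exact two-sided permutation test over arrays gave p = 0.00216 for mdx against normal (924 assignments) and p = 0.00216 for fiona against mdx (462 assignments). The first is the smallest p that 6 arrays against 6 can give. The calls held in the 8 arrays on one side of the within-group component, of which 2 are fiona arrays. The sides were set from these same values, members included, so calls within a side are no separate support. Calls were many there over all probe sets: 1246 higher and 4786 lower for mdx minus normal, and 7070 higher and 1474 lower for fiona minus mdx. Among the 9 arrays on the other side S100a4 and both S100a10 probe sets were still called for mdx minus normal, while S100a6 (1.98, adjusted p = 0.0569) and S100a13 (1.42, adjusted p = 0.0884) were not. In those 9 arrays no member was called for fiona minus mdx. The 5 differences there were -3.13 for S100a4, -1.63 for S100a6, -1.75 and -1.52 for S100a10 and -1.45 for S100a13, of the same sign as over all arrays.

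**Figure D2:**
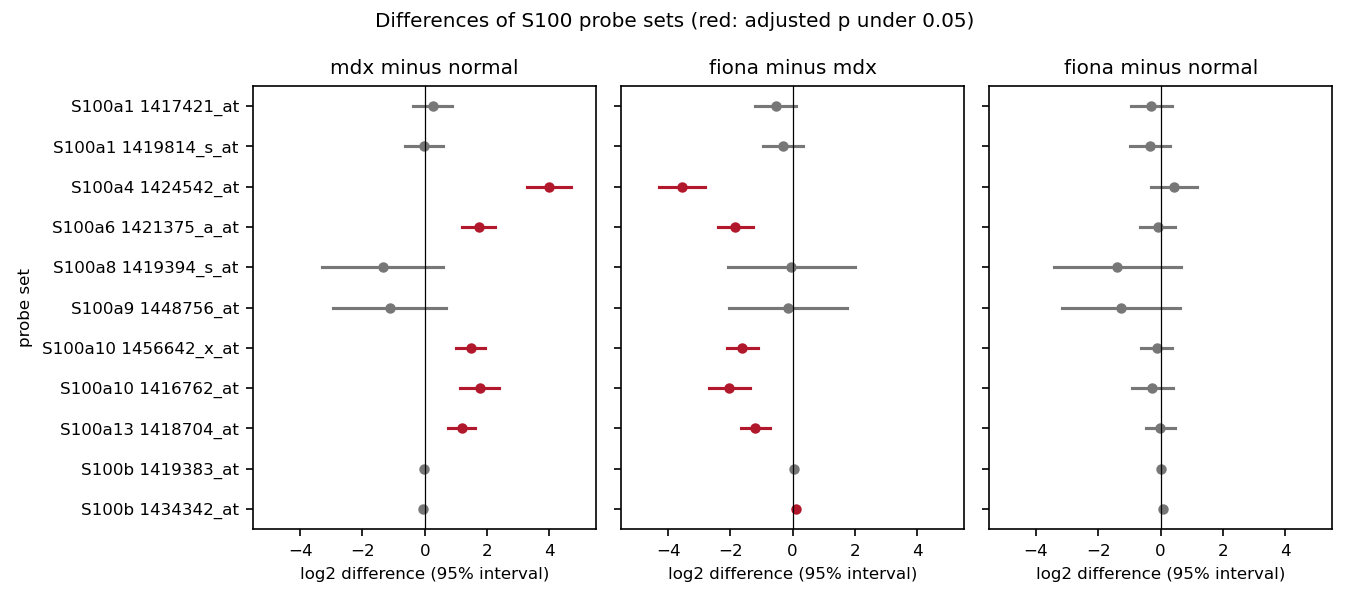
Log2 differences of the 11 member probe sets (points) with their 95% confidence intervals from limma (lines), in panels for mdx minus normal, fiona minus mdx and fiona minus normal; red marks a call, including that of S100b 1434342_at, which lies at background. S100a4 lay at 3.98 for mdx minus normal and -3.54 for fiona minus mdx, and no difference was called for fiona minus normal.

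S100a1, the member of striated muscle fibres, which binds the ryanodine receptor and the calcium pump, did not follow S100a4. With 1417421_at the fiona arrays read 6.84, 6.81, 5.84, 6.69 and 6.20, against 5.85, 7.16 and 7.61 (lowest, median and highest) in mdx muscle and 6.38, 6.77 and 7.37 in normal muscle. With 1419814_s_at the fiona values were 9.10, 9.86, 9.49, 9.28 and 9.48, against 8.40, 9.93 and 10.56 in mdx muscle and 9.38, 9.73 and 10.11 in normal muscle. All 3 groups overlapped on both probe sets. Mdx minus normal was 0.26 and -0.03 (limma adjusted p = 0.549 and 0.943), with intervals of -0.36 to 0.87 and -0.64 to 0.57, so a change as large as that of S100a4 lies outside both. Fiona minus mdx was -0.55 and -0.30 (adjusted p = 0.160 and 0.438). Mdx array 4 was the lowest mdx array on both probe sets (5.85 and 8.40). Without it S100a1 was called lower in fiona muscle than in mdx muscle on both (-0.79 and -0.57, limma adjusted p = 0.0297 and 0.0415).

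S100a1 and S100a13 lie head to head, S100a1 on the minus strand and S100a13 on the plus strand. The 104 bases between their starts are shown because the 2 genes share them while only S100a13 was called for mdx minus normal (chr3:90514331-90514434, GRCm38.p6, RefSeq starts, plus strand, 5′ to 3′, with no motif letters in capitals).
S100a1 to S100a13: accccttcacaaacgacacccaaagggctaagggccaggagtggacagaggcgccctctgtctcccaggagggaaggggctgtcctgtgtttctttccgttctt
None of the 4 motifs searched for this family matches these bases on either strand. The S100a13 probe set read 6.37 ± 0.52 (SD, n = 6) in mdx muscle and 5.18 ± 0.25 (SD, n = 6) in normal muscle, while the brighter S100a1 probe set read 9.74 ± 0.76 in mdx muscle and 9.78 ± 0.29 in normal muscle.

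The S100 genes of chromosome 3 did not move as a block. From S100a1 to S100a9 the annotation has 12 protein-coding genes, all named S100, and 10 of them have a probe set of their own. Among these, S100a13, S100a4 and S100a6 were called higher in mdx than in normal muscle. S100a14, S100a3 and S100a5, which lie between or beside them, were at or under the highest background control on all 17 arrays. S100a16, which is not a member, was well above background, averaging 8.50 ± 0.58 in fiona, 9.02 ± 0.51 in mdx and 8.35 ± 0.62 in normal muscle (SD, n = 5, 6 and 6). Its difference was 0.67 for mdx minus normal (limma adjusted p = 0.291) and -0.52 for fiona minus mdx (adjusted p = 0.231).

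**Figure D3:**
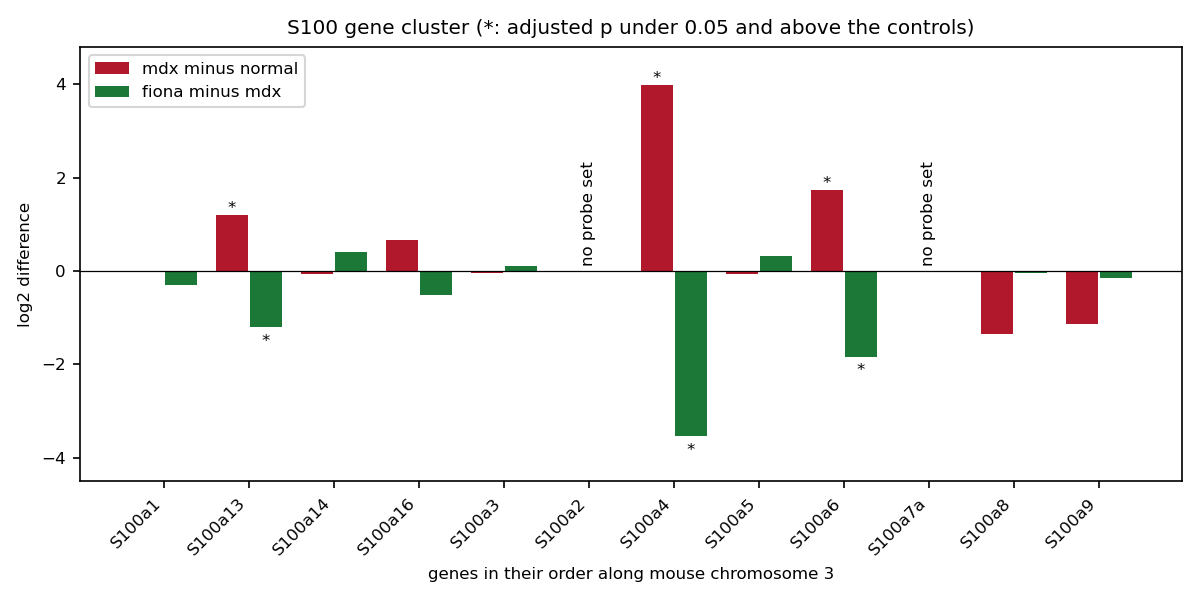
Log2 differences (bars, vertical axis) for mdx minus normal and fiona minus mdx of the S100 genes of chromosome 3, in their order from S100a1 to S100a9 and not to genomic scale, with the brightest probe set of each; asterisks mark calls above background, and S100a2 and S100a7a had no probe set of their own. S100a13, S100a4 and S100a6 carry the asterisks, while S100a3, S100a5 and S100a14 lay at background.

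S100a8 and S100a9, the calprotectin pair of neutrophils, showed no group difference that passed the test, and their signal came mainly from 2 normal arrays. S100a8 read 3.03, 3.01, 3.09, 3.05 and 3.23 in fiona muscle. Its lowest, median and highest values were 2.95, 2.98 and 3.80 in mdx muscle and 2.90, 3.00 and 9.68 in normal muscle, so that all but 3 arrays lay at or under the highest background control. S100a9 read 4.16, 4.11, 4.32, 4.13 and 4.24 in fiona muscle, against 4.03, 4.13 and 5.52 in mdx muscle and 4.07, 4.16 and 10.30 in normal muscle. Outside normal arrays 4 and 5 and mdx array 1 it lay at 4.03 to 4.32. That is above each array's highest background control (3.67 to 4.06) but close to it. For both genes normal array 4 was highest (9.68 and 10.30) and normal array 5 next (5.29 and 5.97). Mdx minus normal was -1.34 for S100a8 and -1.13 for S100a9 (limma adjusted p = 0.354 and 0.388). Without normal array 4 these became -0.30 and -0.16 (adjusted p = 0.596 and 0.769). Fiona minus mdx was -0.05 and -0.14 (adjusted p = 0.972 and 0.914), and fiona minus normal -1.40 and -1.27 (adjusted p = 0.363 and 0.373).

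Some neutrophil granule genes were raised on normal array 4. Of 11 measured neutrophil markers, 5 were highest on normal array 4, and 4 exceeded every other array there by over 2-fold. The other 6 lay below the highest other array or less than 0.1 above it. Camp, the cathelicidin, read 6.77 against 2.16 to 2.33 on the other 16 arrays, and Ltf, lactoferrin, 4.90 against 2.44 to 2.63. Ngp read 5.20 against 1.87 to 3.56, and Lcn2 5.35 against 2.24 to 4.09. On normal array 5, next highest for S100a8 and S100a9, Camp read 2.29, Ltf 2.57, Ngp 3.05 and Lcn2 2.45. On mdx array 1, the highest mdx array for both, these genes read 2.20, 2.50, 2.30 and 3.25. The summed list, as a mean of log2 values, ran over 2.63 to 2.93 in fiona, 2.55 to 2.74 in mdx and 2.55 to 3.89 in normal muscle, and Elane, Prtn3 and Mmp8 were at or under the background median on all arrays. Among 12393 genes 10 exceeded every other array by over 2-fold on normal array 4, and S100a8 and S100a9 followed Camp at the top of that order. Besides the neutrophil genes they include the cartilage collagens Col2a1 (5.89) and Col9a1 (6.28) and the red cell anion exchanger Slc4a1 (6.32), which were named after their values were seen. The part of such cells in the S100a8 and S100a9 values was not tested. None of the 11 markers was called for mdx minus normal by limma (0 also at an unadjusted p under 0.05), and 2 were called higher in fiona muscle than in mdx muscle, where 36.0% of all probe sets were called higher. These 2, Csf3r and Mmp8, were named after their values were seen and lay at or under the highest background control on all 17 arrays.

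**Figure D4:**
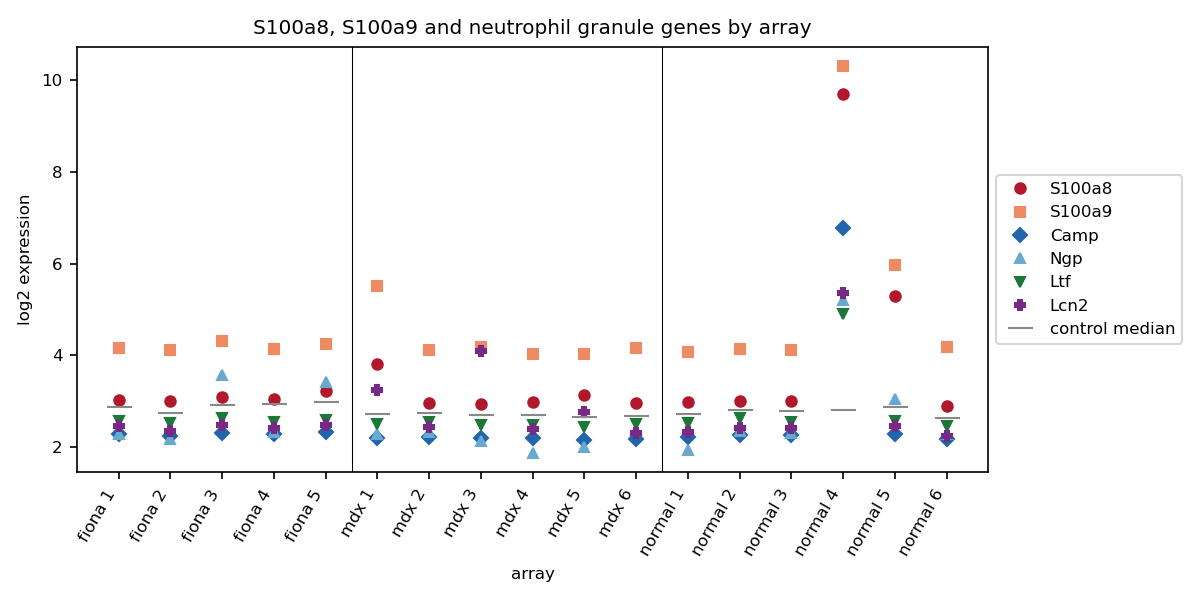
Log2 expression (vertical axis) of S100a8, S100a9 and the neutrophil granule genes Camp, Ngp, Ltf and Lcn2 on each of the 17 arrays, ordered fiona, mdx and normal; the short grey lines are each array's median background control. S100a8 and S100a9 reached 9.68 and 10.30 on normal array 4, where Camp read 6.77.

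S100a8 and S100a9 lie at the end of the cluster and face each other, S100a8 on the plus strand and S100a9 on the minus strand, and their upstream regions are shown because the 2 genes were high together on the same arrays. Each is the 250 bases before the RefSeq start in GRCm38.p6, 5′ to 3′ on the gene's own strand, at chr3:90668821-90669070 (plus) and chr3:90695722-90695971 (minus), with TATAAA in capitals.
S100a8: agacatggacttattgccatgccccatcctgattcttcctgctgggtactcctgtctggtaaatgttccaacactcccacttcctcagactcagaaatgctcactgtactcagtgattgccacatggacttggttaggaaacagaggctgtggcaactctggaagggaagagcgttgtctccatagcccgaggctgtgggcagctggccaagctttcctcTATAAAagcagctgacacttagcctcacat
S100a9: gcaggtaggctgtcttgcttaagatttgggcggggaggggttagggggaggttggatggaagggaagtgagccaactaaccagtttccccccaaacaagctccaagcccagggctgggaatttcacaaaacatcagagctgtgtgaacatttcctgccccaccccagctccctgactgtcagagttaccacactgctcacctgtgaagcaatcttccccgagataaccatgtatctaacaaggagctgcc
TATAAA lies 30 bases before the S100a8 start and is not in the S100a9 window. The letters TTNNGNAA, a loose form of the C/EBP motif of myeloid genes, occur in both windows and in no other member promoter, and in 36.8% of all promoters. A match is only a match of letters, and binding was not measured.

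S100b, the Schwann cell and astrocyte member, was not detected. Both probe sets lay at or under the median background control on all 17 arrays, 1419383_at averaging 1.91 ± 0.03 in fiona, 1.85 ± 0.01 in mdx and 1.89 ± 0.03 in normal muscle, and 1434342_at 2.51 ± 0.05, 2.39 ± 0.04 and 2.44 ± 0.06 in the same order of groups (SD). The second was called higher in fiona muscle than in mdx muscle by 0.12 (limma adjusted p = 0.0146), in a comparison where 36.0% of all probe sets were called higher. Of those 8140 probe sets, 79.2% lay at or under the highest background control on all arrays, as did 42.9% of all probe sets, so this call is given no fold. With every array centred on its median, the median difference of all probe sets moved to -0.04, against 0.08 as deposited, and calls over all probe sets were 1227 higher and 1246 lower in place of 8140 and 1376. The S100b difference then became -0.00755. Among 8 measured Schwann cell markers 0 were called by limma for mdx minus normal (2 at an unadjusted p under 0.05) and 1 was called lower in fiona muscle than in mdx muscle.

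Of the other S100 genes, S100a3, S100a5, S100a14, S100a16 and S100g had a probe set. By limma 0 were called for mdx minus normal (0 at an unadjusted p under 0.05). The 4 called higher in fiona muscle than in mdx muscle, all but S100a16, were at or under the highest background control on all arrays. They were named after their values were seen.

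Genes for proteins that bind S100 members changed in part alongside them. Of 20 measured partners, 4 were called higher and 0 lower in mdx than in normal muscle, and 4 were called higher and 8 lower in fiona muscle than in mdx muscle. Over all genes 3.17% were called higher in mdx than in normal muscle and 7.00% lower in fiona muscle than in mdx muscle. Of all probe sets, 36.0% were called higher in fiona muscle than in mdx muscle. The counts of the gene lists below stand beside the same shares. The list's median difference was 0.33 for mdx minus normal and -0.41 for fiona minus mdx, beside -0.04 and 0.08 over all genes. Anxa2, the membrane-binding partner in the complex with S100A10, averaged 8.52 ± 0.69 in fiona, 10.33 ± 0.33 in mdx and 8.26 ± 0.36 in normal muscle (SD, n = 5, 6 and 6). It differed by 2.06 for mdx minus normal and -1.81 for fiona minus mdx (limma adjusted p = 0.000235 and 0.00150). Anxa1, which S100A11 binds, differed by 1.76 and -2.34 (adjusted p = 0.0114 and 0.00267). Anxa5 differed by 1.24 and -1.46 (adjusted p = 0.000880 and 0.000428). Capza1, an actin capping subunit, differed by 0.87 and -0.88 (adjusted p = 0.00459 and 0.00687).

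Other partners passed only for fiona minus mdx or not at all; whether the 2 comparisons differ for a gene was not tested. Ahnak, a large scaffold held by S100A10 and annexin A2, was -0.54 for fiona minus mdx (limma adjusted p = 0.0120) and 0.34 for mdx minus normal (adjusted p = 0.200). Plat, the tissue plasminogen activator that S100A10 binds at the cell surface, was -1.06 for fiona minus mdx (adjusted p = 0.0222), and the kinase gene Stk38 -0.60 (adjusted p = 0.0135). Fgf1, the growth factor exported with S100A13, was higher in fiona muscle than in mdx muscle by 1.04 (adjusted p = 0.0120), the opposite sign to S100a13. Myh9, the non-muscle myosin that S100A4 disassembles, gave 0.39 for mdx minus normal and -0.42 for fiona minus mdx (adjusted p = 0.379 and 0.275). Cacybp, the S100A6 partner, gave 0.11 and -0.23 (adjusted p = 0.736 and 0.453). Syt1, Il1a and Dlc1, the other 3 called higher in fiona muscle than in mdx muscle, were at background on all arrays.

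Few receptors for secreted S100 proteins passed the test. Of 7 measured, 0 were called by limma for mdx minus normal (2 at an unadjusted p under 0.05), and for fiona minus mdx 1 was called higher and 1 lower. Tlr4 gave 0.32 for mdx minus normal and -0.26 for fiona minus mdx (adjusted p = 0.256 and 0.171). All fiona and normal arrays and 3 of 6 mdx arrays of Tlr4 were at or under the highest background control. Ager was called higher in fiona muscle than in mdx muscle by 0.27 (adjusted p = 0.0120), averaging 4.15 ± 0.16 in fiona and 3.87 ± 0.07 in mdx muscle, close to the highest background control. Nptn, neuroplastin, was -0.79 (adjusted p = 0.0107). Among 14 other genes of EF-hand proteins 0 were called for mdx minus normal by limma (7 at an unadjusted p under 0.05), while 7 were called lower in fiona muscle than in mdx muscle. The largest of these differences, picked after the values were seen, were -2.73 for Tnnc1, the slow fibre troponin C, and -1.74 for Rcn1, a calcium-binding protein of the endoplasmic reticulum.

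Macrophage markers and regeneration genes mostly moved with the 4 called members, and fibroblast markers did so in part. Of 11 macrophage markers, 9 were called higher in mdx than in normal muscle and 10 lower in fiona muscle than in mdx muscle, and their mean level ran over 4.47 to 5.21 in fiona, 7.27 to 8.31 in mdx and 4.35 to 5.12 in normal muscle. The largest changes for mdx minus normal were 5.36 for Mpeg1, 5.31 for Tyrobp and 4.44 for Cd68. In normal muscle all 6 arrays of Mpeg1 and 5 of 6 of Tyrobp were at or under the highest background control. Cd68 was at or under the background median on all 6 normal arrays, so these sizes are measured against background. Of 10 fibroblast markers, 2 (Lum at 1.68 and Col3a1 at 1.53) were called higher in mdx than in normal muscle and 7 lower in fiona muscle than in mdx muscle, with mean levels of 7.27 to 8.67 in fiona, 9.10 to 9.82 in mdx and 8.18 to 9.37 in normal muscle. Dcn hardly differed between mdx and normal muscle (means 11.81 and 11.73). Pi16 went the other way, averaging 5.40 in fiona, 5.31 in mdx and 6.19 in normal muscle. Of 9 regeneration genes, 6 rose in mdx against normal muscle and 7 fell in fiona against mdx muscle, with mean levels of 4.99 to 5.39, 6.05 to 8.32 and 4.40 to 4.88 in fiona, mdx and normal muscle. The largest were 5.42 for Myh3, the embryonic myosin, 5.21 for Myl4 and 3.90 for Myog. All 6 normal arrays of Myog were at or under the highest background control. No macrophage or fibroblast marker lay at the background median on all arrays. The part of these cell types in the S100 values was not tested.

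**Figure D5:**
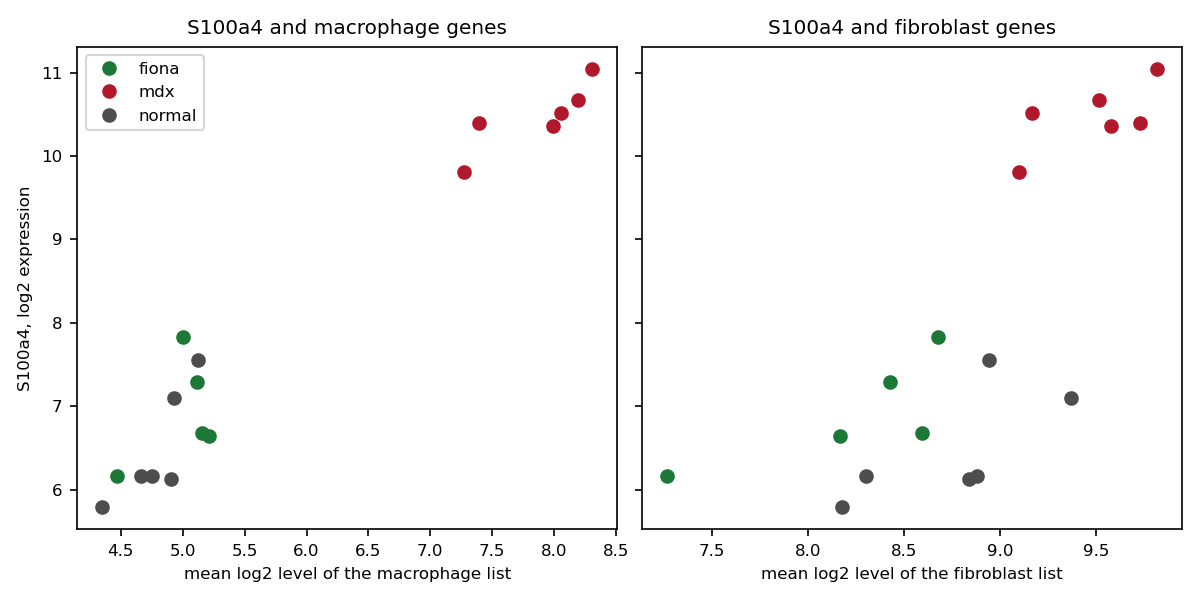
S100a4 (log2 expression, vertical axis) against the mean log2 level of the macrophage markers (left) and the fibroblast markers (right) on the 17 arrays, coloured by group. The mdx arrays stood apart on both axes of the macrophage panel, at 7.27 to 8.31 for the markers and 9.81 to 11.04 for S100a4, while mdx and normal arrays overlapped on the fibroblast axis.

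Of 7 slow fibre genes, 1 was called higher and 1 lower in mdx than in normal muscle (7 at an unadjusted p under 0.05), and 1 was called higher and 4 lower in fiona muscle than in mdx muscle. For mdx minus normal 1 of 8 cartilage and tendon genes was called higher (1 at an unadjusted p under 0.05). By limma 0 of 5 adipocyte, 8 endothelial and smooth muscle and 10 fast fibre genes were called there (2, 3 and 1 at an unadjusted p under 0.05). For fiona minus mdx, where 36.0% of all probe sets were called higher, 2 adipocyte genes and 1 fast fibre gene were called higher, 1 cartilage and tendon gene higher and 1 lower, and 0 endothelial and smooth muscle genes (0 at an unadjusted p under 0.05). The higher adipocyte calls (Lep and Cidec) and the higher cartilage call (Acan), named after their values were seen, were at or under the highest background control on all 17 arrays. Every list had 0 calls by limma for fiona minus normal.

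Within groups, after each group's mean was taken off, some members varied together from array to array, and for S100a10 this differed between its probe sets. Over the 17 arrays the residuals of S100a8 and S100a9 correlated at 0.99. Both genes were highest on normal arrays 4 and 5, and both stood apart on mdx array 1 (3.80 and 5.52) among the mdx arrays. The correlation without these arrays was not computed. S100a4 correlated with S100a6 at 0.83. S100a10 on 1416762_at correlated with S100a6 at 0.94, with S100a4 at 0.76 and with S100a13 at 0.59, whereas the brighter 1456642_x_at gave 0.48, 0.36 and 0.09 with the same genes. S100a13 correlated with S100a6 at 0.68 and with S100a4 at 0.52, and about as much, at 0.51, with the brighter probe set of S100a1, whose group levels did not follow its own. The residuals of S100a4 correlated with those of the macrophage list at 0.65 and of the fibroblast list at 0.72, and those of S100a6 at 0.71 and 0.77. These arrays share the within-group component described above, so the correlations are descriptions.

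The genes whose log2 levels over the 17 arrays were most like those of a member, by Pearson correlation, were found for the brightest probe set of each. For S100a4 they were Clic1 (0.98), Lgmn (0.98) and Tyrobp (0.97). S100a6 was most like C1qc, Tspo and Anxa5 (0.97 each). The nearest to S100a10 were Emp1 (0.96), Fcgr3 (0.95) and Mt2 (0.95), and to S100a13 Mpp1 (0.96), Npc2 (0.94) and Sln (0.94). S100a1 was closest to Sqstm1 (0.90), Mapkapk5 (0.88) and Ramp1 (0.88). S100a8 was closest to S100a9 (0.99), Col2a1 (0.97) and Wfdc21 (0.95). All 4 of these genes were highest on normal array 4, where Col2a1 read 5.89 and Wfdc21 4.94. Elsewhere they reached at most 3.96 and 4.23, and the correlations without that array were not computed. On the residuals alone the closest gene was Ccdc86 for S100a4 (0.85), C1qc for S100a6 (0.87), Pus3 for S100a10 (0.88), Ogfod3 for S100a13 (0.93) and Zswim7 for S100a1 (0.94).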

How the data were processed

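The authors deposited 1 table of log2 expression values for 22690 probe sets on 17 arrays. The submitters' processing notes name RMA and GCRMA without saying which method the deposited values come from. No pseudocount or further scaling was applied. The 64 Affymetrix control probe sets were left out, and 22626 were tested, of which 20380 carry 1 gene symbol in the platform annotation, 691 several and 1555 none. Groups were taken from the labels.

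Group means were fitted with limma 3.58.1 in R 4.3.3 over all 17 arrays, with Benjamini-Hochberg adjustment over all probe sets and a threshold of 0.05. Fold changes are 2 to the power of the log2 difference. Single probe sets were also compared by exact two-sided permutation of arrays. Descriptions and figures used Python 3.11.15 and matplotlib 3.10.9. The fit was tested on simulated data. Precision is limited by the number of arrays. Separate mice are implied by the replicate labels, without an animal number. The deviations of same-numbered mdx and normal arrays correlated at 0.11 to 0.60, over 0.1 in 6 of 6 pairs. Each of these pairs lies on the same side of the within-group component. This measure therefore cannot tell a pairing by number from that split, and the labels do not say what a number shares.

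The members and gene lists were chosen with earlier results of these data known. All member probe sets are named. Of partners, receptors and other S100 genes, up to 8 called genes per comparison with the largest change and the known partners of members are named, and of each cell marker list up to 3 genes. Promoters came from RefSeq (GRCm38.p6). Alternatives covered scaling, probe set choice, a filter on dim probe sets, array sets, sex pattern, a replicate block and leaving out each array.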

Additional observations from a re-analysis of the deposited data

Results flagged for a closer look

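Of 33 groups of values (11 probe sets in 3 groups), 7 held an array whose gap to its nearest neighbour exceeded Dixon's critical value, where chance flags about 1 in 20. On mdx array 1, 4 members were highest among the mdx arrays by such a gap: S100a6 at 12.4 (next 11.6), S100a10 at 10.7 with 1416762_at (next 9.75), S100a8 at 3.80 (next 3.13) and S100a9 at 5.52 (next 4.17). The S100a8 value lies just above the highest background control of that array (3.73). On normal array 4, S100a8 at 9.68 (next 5.29) and S100a9 at 10.3 (next 5.97) stood apart, as described with the neutrophil markers. On fiona array 2, S100a13 at 5.60 (next 5.15) was the highest fiona value.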

How the results depend on the processing

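Across 31 settings, 301 alternative values were computed for the called member differences other than S100b. All 301 kept their sign and 292 stayed called. The other 9 were 7 within array set 2 (the 9 arrays on one side of the within-group component) and the 2 of S100a10 1456642_x_at without the 7 arrays of female pattern, where fiona array 4 alone is left and is assumed to vary like the other groups; that alternative was chosen after seeing the data. Array set 2 alone left 3 member calls for mdx minus normal, in place of 5, and 0 for fiona minus mdx, in place of 6. Over all probe sets that setting gave 222 higher and 159 lower calls for mdx minus normal, against 618 and 295, and 17 higher and 105 lower for fiona minus mdx, against 8140 and 1376. Quantile normalization gave 2427 higher and 936 lower for fiona minus mdx, and the filter on dim probe sets 620 and 853. Leaving out each array in turn gave 5 to 5 member calls for mdx minus normal, 6 to 8 for fiona minus mdx and 0 to 0 for fiona minus normal. Median centring turned the S100b 1434342_at difference for fiona minus mdx to -0.00755. In 48 cases a difference that was not called changed sign.

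Same-numbered mdx and normal arrays, which always share an array set, correlated at over 0.1 in every pair. The correlations with fiona arrays were -0.42 to 0.29 for mdx arrays (2 of 5 over 0.1) and -0.51 to 0.48 for normal arrays (1 of 5). They were 0.09 to 0.48 for numbers 2 and 4, where the fiona array shares the array set of the others. For numbers 1, 3 and 5, where it does not, they were -0.51 to -0.29. Pairing by number and array set cannot be told apart here. With the replicate block over the mdx and normal arrays alone, an alternative chosen after seeing the data, 5 members were called for mdx minus normal, as without it, and no member call changed. Over all probe sets that fit called 631 higher and 427 lower, against 618 and 295. With the replicate block over all 17 arrays 5, 6 and 0 members were called for mdx minus normal, fiona minus mdx and fiona minus normal, and over all probe sets fiona minus mdx had 3584 higher and 945 lower calls.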
